A study of Mus musculus with 8 samples.

Results

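Alternative activation is the macrophage state that follows interleukin-4 or interleukin-13, and 10 genes other than arginase that are commonly used to mark it were examined: Il4ra, Retnla, Chi3l3, Mrc1, Clec10a, Mgl2, Clec7a, Cd163, Stab1 and Tgm2. They were taken by gene symbol from a table of 23735 loci; 9 matched exactly, and Chi3l3 was found under Chil3, its other symbol. Expression was given as RPKM, a gene's reads divided by the length of its transcript and by the depth of the library. Of these genes, 9 were among the 11272 loci that reached 1 RPKM in at least 2 libraries and were tested, and Mgl2 was below that level in all 8.

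The libraries came from peritoneal macrophages of C57BL/6J mice aged 8 weeks, in 4 groups of 2 libraries lettered A and B. MED1 is a subunit of Mediator, the complex that connects transcription factors with RNA polymerase II. Control mice carried MED1 fl/fl alleles (WT in the labels), so the controls held the floxed allele as well, and the others lacked MED1 in macrophages (MED1ΔMac, KO in the labels). The sources used here name neither the Cre driver nor the number of mice behind a library. Cells of each genotype were left without treatment or received lipopolysaccharide (LPS), the bacterial Toll-like receptor 4 ligand, at 50 ng/mL for 6 hours. The labels name no treatment with interleukin-4 or interleukin-13. Nothing in the labels says that A and B came from separate mice, so p-values measure the spread between these libraries, which may be technical.

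Interleukin-4 and interleukin-13 bind receptors that share the chain encoded by Il4ra, and Janus kinases then phosphorylate STAT6, which enters the nucleus. In mouse macrophages STAT6 activates Arg1, Retnla, Chi3l3, Mrc1 and the galactose-type lectin genes Clec10a and Mgl2. LPS acts through NF-κB and interferon signalling and marks the classical state. Cd163 and Stab1 encode scavenger receptors of resident and glucocorticoid-exposed macrophages, Clec7a encodes dectin-1, the receptor for fungal beta-glucan, and Tgm2 encodes a protein-crosslinking transglutaminase.

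Promoter sequences were available for 8 of the 10 genes in RefSeq tables of GRCm38.p6, with none for Clec10a and Tgm2. The 250 bases before each start were searched on both strands for a STAT6 type motif (TTC and GAA with any 4 bases between), an AP-1 type motif (TGANTCA) and the NF-kB consensus. The Retnla and Clec7a windows each held a match, and Il4ra is shown beside them as a gene that rose with LPS and held none. Each line gives the 250 bases before the start, 5′ to 3′ on the gene's strand, with the match in capitals.

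Retnla, chr16:48842359-48842608, plus strand: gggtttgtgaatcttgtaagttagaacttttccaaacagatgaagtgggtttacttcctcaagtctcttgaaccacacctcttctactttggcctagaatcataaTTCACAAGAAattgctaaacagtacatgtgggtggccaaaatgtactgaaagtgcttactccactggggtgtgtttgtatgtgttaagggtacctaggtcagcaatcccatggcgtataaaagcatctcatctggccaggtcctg

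Clec7a, chr6:129472780-129473029, minus strand: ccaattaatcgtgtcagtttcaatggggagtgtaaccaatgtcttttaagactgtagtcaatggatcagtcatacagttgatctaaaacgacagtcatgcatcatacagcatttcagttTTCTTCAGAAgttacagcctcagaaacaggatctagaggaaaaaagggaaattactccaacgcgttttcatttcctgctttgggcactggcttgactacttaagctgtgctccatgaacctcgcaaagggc

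Il4ra, chr7:125552021-125552270, plus strand: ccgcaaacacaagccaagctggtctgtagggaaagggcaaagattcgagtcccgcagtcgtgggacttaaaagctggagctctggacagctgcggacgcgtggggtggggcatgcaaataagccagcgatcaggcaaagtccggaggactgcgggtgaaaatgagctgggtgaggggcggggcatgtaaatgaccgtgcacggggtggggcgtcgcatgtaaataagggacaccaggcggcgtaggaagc

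The Retnla match, TTCACAAGAA, began 145 bases before the start, and the Clec7a match, TTCTTCAGAA, began 131 bases before the start shown. Another start is listed for Clec7a, and the same match began 125 bases before that start. Both matches are of the STAT6 type. Chi3l3, Mrc1, Il4ra, Mgl2, Cd163 and Stab1 held no match to any of the 3 motifs in these windows. Of 32851 promoter windows of the same length, also from RefSeq, 5.85% held the STAT6 type, 7.25% the NF-kB consensus and 6.75% the AP-1 type. A match is a run of letters and was not tested as a binding site.

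Estimated depth was 6.79 M to 13.97 M reads per library, from the size of 1 read's step in the RPKM of 442 genes with a single transcript; across those genes the estimate for the deepest library had quartiles of 12.8 M and 14.7 M. The deposited gene-level value of Med1 was 17.6 to 24.8 RPKM in all 8 libraries and did not separate KO from WT; no source used here names the deleted exons, so this level checks nothing. All 12 markers of large peritoneal macrophages passed the filter. Their summed level was 18499 to 34875 RPKM in WT and 7700 to 17999 in KO, most of it Lyz2, the lysozyme gene. Taken singly, the 12 overlapped between the genotypes over all libraries, with Emr1 at 396 to 450 RPKM in WT and 277 to 709 in KO. Timd4, one of these markers, was at 25.1 and 20.2 RPKM in the LPS-treated A libraries of WT and KO against 44.0 and 31.8 in the B libraries. The gap was wider without LPS, at 2.47 and 1.13 RPKM in the untreated A libraries of WT and KO against 42.9 and 71.5 in the B libraries. Summed mast cell markers were at 10.3 and 5.86 RPKM in those A libraries against 77.4 and 186 in the B libraries, and with LPS at 111 and 398 in WT and 50.7 and 190 in KO. B cell markers summed to 424 to 651 RPKM in WT, 594 and 1769 in untreated KO, and 1444 and 1029 in LPS-treated KO. Markers of small macrophages, monocytes and dendritic cells summed to 511 to 840 RPKM in 7 libraries and to 1317 in untreated KO library B. Of the dendritic cell genes among them, Flt3 and Xcr1 were under 1 RPKM throughout. Clec9a was at 11.7 and 5.01 RPKM in the untreated B libraries of WT and KO. Cd209a reached 4.44 RPKM in untreated KO library B, and Zbtb46 1.82 in LPS-treated KO library B. Eosinophil markers summed to 5.9 to 30.4 RPKM, most of it Il5ra, with Ear1 at 0. Neutrophil markers summed to 39.8 to 134, most of it S100a8, with Ngp at 0. In bulk RNA, fewer cells of a type and less RNA per cell cannot be told apart, and the part of other cells in the results below was not tested beyond the values given.

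**Figure D1:**
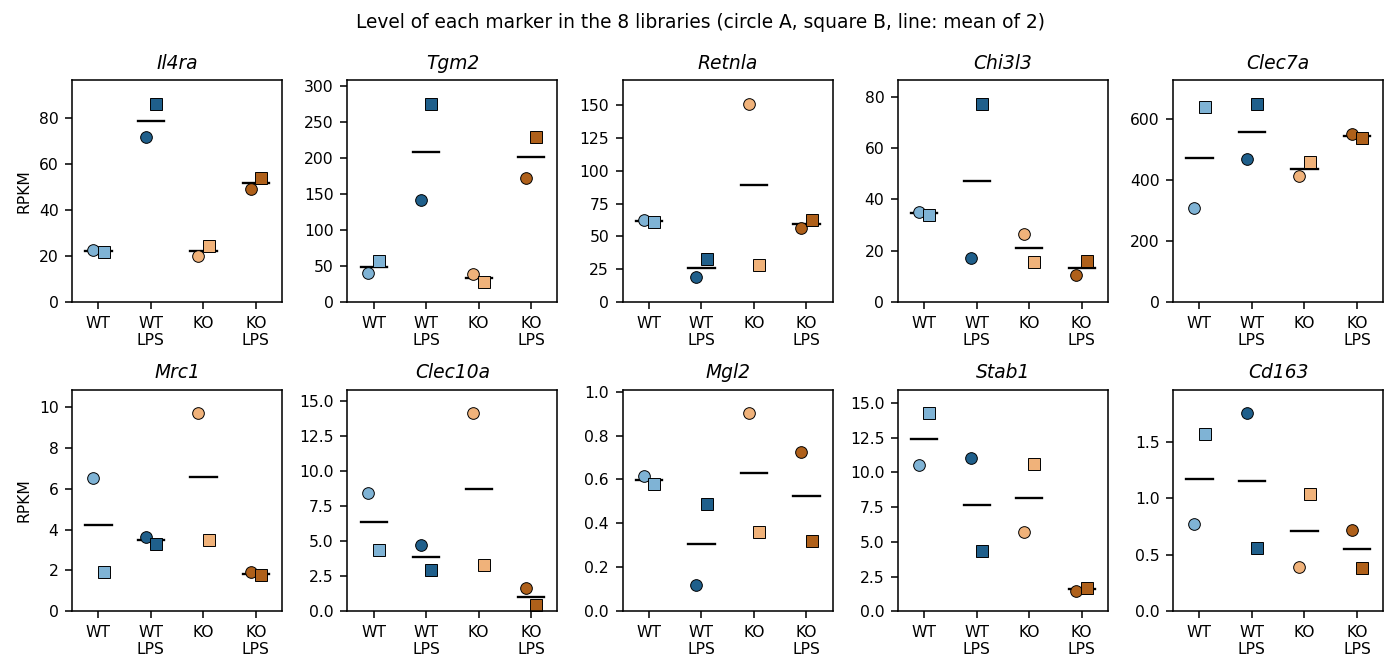
RPKM (y axis, linear from 0, own scale per panel) of the 10 alternative activation markers in WT and KO macrophages without and with LPS. Circles are library A, squares library B and lines the mean of 2. Il4ra and Tgm2 are higher in all 4 LPS libraries than in all 4 untreated ones, and Retnla reaches 150.9 in a single untreated KO library.

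The 10 genes covered a wide range of levels per transcript length. Clec7a was the highest in every group, with means of 474 RPKM in untreated WT, 559 in LPS-treated WT, 436 in untreated KO and 545 in LPS-treated KO. Retnla, Tgm2, Chi3l3 and Il4ra followed at 22.2 to 61.8 RPKM in untreated WT, where the libraries of each stood apart from those of its neighbours in the order. Stab1 was next at 12.4 RPKM, Clec10a and Mrc1 overlapped at 6.38 and 4.23, and Cd163 and Mgl2 closed the order at 1.17 and 0.598. With LPS, Tgm2 took the place below Clec7a in both genotypes, at 208 RPKM in WT and 201 in KO. Retnla came below Chi3l3 in LPS-treated WT, where its lowest library was above Stab1's highest and its range overlapped that of Chi3l3, and stood just above Il4ra in LPS-treated KO.

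With LPS, Il4ra and Tgm2 rose in WT and in KO macrophages. None of the other 7 tested markers passed the test of the main fit in either genotype. With the letter added as a replicate block, Clec10a and Stab1 also passed in KO, both lower. In WT, the main fit called 2 of 9 higher and none lower, where 3.17% of all tested loci were called higher and 3.14% lower. In KO the counts were again 2 and 0, against 3.31% called higher and 3.31% called lower over all loci. Calls use limma on log2(RPKM + 1) with Benjamini-Hochberg adjustment over the 11272 loci and a threshold of 0.05, and a log2 change on this scale understates the change of low genes. The median change of the 9 tested markers was -0.04 in WT and -0.13 in KO, beside medians of -0.25 and -0.28 over all loci. Scaling by median ratios raised the all-locus medians by 0.23 and 0.25, so the LPS changes below are to be read against that shift. Marker sums of other cells moved with LPS too, though not through every marker. Neutrophil markers summed to 79.3 to 134 RPKM in the 4 LPS libraries and 39.8 to 67.7 in the untreated ones. That rise was in S100a8 and Camp. S100a9 stayed at 5.63 RPKM or less, and Mpo and Elane were at 0 in every LPS library. The mast cell sum was higher with LPS in both letters of each genotype, most of it Hdc (85.3 and 310 RPKM in WT, 47.6 and 118 in KO). Cpa3, another mast cell marker, rose in letter A of both genotypes. In letter B it went from 29.6 to 29.9 RPKM in WT and from 77.3 to 29.6 in KO. The part of other cells in the rises of Il4ra and Tgm2 was not tested.

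**Figure D2:**
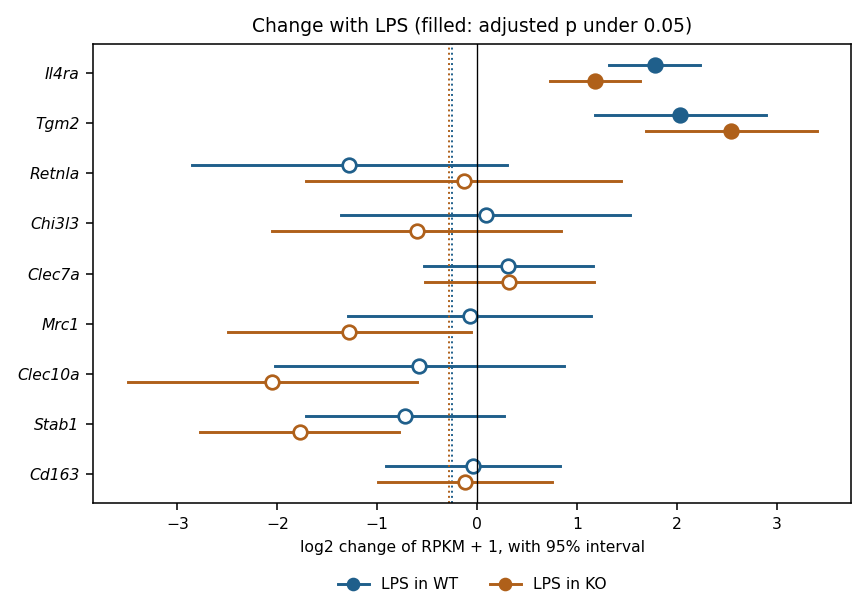
Log2 change of RPKM + 1 with LPS (x axis) for the 9 tested markers in WT (blue) and KO (brown); bars are 95% intervals, filled points have an adjusted p under 0.05 and dotted lines are the medians of all tested loci (-0.25 and -0.28). Filled points stand at Il4ra and Tgm2 in both genotypes, and the KO points of Mrc1, Clec10a and Stab1 lie at -1.28, -2.05 and -1.78.

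Il4ra encodes the signalling chain of the receptors for interleukin-4 and interleukin-13 and lies at chr7:132695785-132722986 on the plus strand (mm9 here and for all gene positions). Its RPKM was 22.6 and 21.9 in untreated WT, 71.6 and 86.1 in LPS-treated WT, 20.1 and 24.5 in untreated KO, and 49.3 and 53.8 in LPS-treated KO, in the order A and B. All 4 LPS libraries were above all untreated ones, and both WT libraries with LPS were above both KO libraries with LPS. The WT mean was 22.2 ± 0.509 RPKM without and 78.9 ± 10.2 RPKM with LPS (SD, n = 2). This was a 3.55-fold rise, or 1.78 on the log2 scale (standard error 0.19, limma adjusted p = 0.0099). The KO means were 22.3 ± 3.09 and 51.6 ± 3.17 RPKM (SD, n = 2), a 2.31-fold rise, or 1.18 on the log2 scale (standard error 0.19, limma adjusted p = 0.0212). The WT call was lost in the fit without WT untreated A (adjusted p = 0.0738), WT untreated B (0.0512) or WT LPS B (0.0569). The KO call was lost in 4 fits, those without the untreated KO library A (0.056) or B (0.0614) and those without the KO library with LPS A (0.0854) or B (0.183), while the log2 change stayed between 1.04 and 1.31.

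Tgm2, the tissue transglutaminase gene (chr2:157942138-157972172, minus strand), had the largest rise of the tested markers. Its RPKM was 39.6 and 56.8 in untreated WT, 141 and 275 in LPS-treated WT, 39.3 and 28.2 in untreated KO, and 172 and 229 in LPS-treated KO. The lowest LPS library was above the highest untreated one. The rise was 4.31-fold in WT (log2 change 2.03, standard error 0.37, limma adjusted p = 0.0258) and 5.94-fold in KO (2.54, standard error 0.37, limma adjusted p = 0.0155). Without WT untreated A, WT untreated B or WT LPS B, the WT adjusted p was 0.161, 0.0771 or 0.129, and without the filter on low levels it was 0.0562. In KO it was 0.0748 when untreated library B was left out, and 0.0636 or 0.126 when library A or B with LPS was. Its exons overlap those of Rprd1b and RP23-396G1.3 on the opposite strand, and no source used here says whether the counting used strand. Among 3 other tested transglutaminase genes, Tgm1, of epidermal crosslinking, rose in both genotypes, with log2 changes of 2.15 (adjusted p = 0.0156) and 1.39 (adjusted p = 0.0404), and none fell; with the replicate block 1 rose in each genotype and 1 fell in KO. The Tgm1 call in KO was lost with a pseudocount of 0.1, without the filter, with a filter at 5 RPKM and in 6 of 8 fits without 1 library.

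Retnla and Chi3l3 encode secreted proteins that follow STAT6 activation, the resistin-like protein FIZZ1 and the chitinase-like protein Ym1. Retnla (chr16:48842665-48844574, plus strand) was at 62.6 and 60.9 RPKM in untreated WT and at 19.0 and 32.5 once treated, a difference that held for both letters. In KO it was at 150.9 and 28.1 without treatment and at 56.7 and 62.7 with LPS, so the untreated libraries lay on either side of the treated ones. The log2 change with LPS was -1.28 in WT (95% interval -2.85 to 0.30, limma adjusted p = 0.247) and -0.13 in KO (-1.71 to 1.44, adjusted p = 0.908). A fit without untreated KO library A or B, whose 5.37-fold difference enters the shared spread, called the WT change (adjusted p = 0.0458 and 0.0462).

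Chi3l3 (chr3:105950472-106022425, minus strand) was at 35.2 and 34.0 RPKM in untreated WT, 17.2 and 77.2 in LPS-treated WT, 26.3 and 15.7 in untreated KO, and 10.6 and 15.999 in LPS-treated KO. The WT libraries with LPS lay on opposite sides of the untreated ones, and their 4.49-fold difference was the widest for this gene. Its log2 changes with LPS were 0.08 in WT (-1.37 to 1.53, adjusted p = 0.944) and -0.61 in KO (-2.05 to 0.84, adjusted p = 0.525). Its near copy Chi3l4 (Ym2) shares 17.9% of the 50-base windows of Chi3l3 transcripts and overlaps its gene model. Chi3l4 was listed at 0 in 7 libraries and at 0.0488 RPKM in untreated KO library A. The shared stretches are 18.5% of Chi3l4's windows, and with the overlap they leave the split of reads between the copies uncertain.

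The lectin receptors comprise Mrc1, Clec10a, Mgl2 and Clec7a. Mrc1, the mannose receptor CD206 (chr2:14151041-14253684, plus strand), was at 6.52 and 1.94 RPKM in untreated WT, 3.65 and 3.29 in LPS-treated WT, 9.68 and 3.48 in untreated KO, and 1.93 and 1.76 in LPS-treated KO. Values overlapped between treatments in WT and not in KO. The log2 change was -0.07 in WT (-1.29 to 1.14, adjusted p = 0.942), with the opposite sign under either rescaling, and -1.28 in KO (-2.50 to -0.07, adjusted p = 0.154, and 0.0661 with the letter as a replicate block).

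Clec10a encodes MGL1, which binds galactose and N-acetylgalactosamine (chr11:69980125-69984336, plus strand). It was at 8.41 and 4.35 RPKM in untreated WT, 4.73 and 2.94 in LPS-treated WT, 14.1 and 3.27 in untreated KO, and 1.64 and 0.418 in LPS-treated KO. Library A was the higher in each of the 4 groups, by 1.61-fold to 4.31-fold. The KO libraries with LPS were the lowest of the 8, with estimates of 25 and 5 reads. The log2 change in KO was -2.05 (standard error 0.62, limma adjusted p = 0.0862), and with the replicate block it passed the test (adjusted p = 0.0115). In WT it was -0.58 (-2.02 to 0.87, adjusted p = 0.556).

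Mgl2, the neighbouring lectin gene, ends 29.1 kb before Clec10a begins (chr11:69943831-69951052, plus strand) and encodes MGL2. Its 8 values lay between 0.121 and 0.901 RPKM, or an estimated 2 to 21 reads, and it was not tested. The pair share 14.3% of Clec10a's 50-base transcript windows, so reads from those stretches cannot be assigned to either gene with certainty. In WT both libraries with LPS (0.121 and 0.488 RPKM) were below both untreated ones (0.617 and 0.580), at an estimated 2 and 5 reads against 9 and 10, and in KO the treatments overlapped.

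Clec7a (chr6:129411611-129422790, minus strand) was at 308 and 641 RPKM in untreated WT, 468 and 650 in LPS-treated WT, 412 and 460 in untreated KO, and 551 and 538 in LPS-treated KO. WT treatments overlapped, and in KO the LPS libraries were higher. The log2 change was 0.31 in WT (-0.54 to 1.16, adjusted p = 0.590) and 0.32 in KO (-0.53 to 1.17, adjusted p = 0.566). The libraries held an estimated 6009 to 14947 reads of Clec7a.

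Of the scavenger receptors, Stab1 encodes stabilin-1, which takes up altered lipoproteins and extracellular matrix fragments (chr14:31952199-31981827, minus strand). Its RPKM was 10.5 and 14.2 in untreated WT, 11.02 and 4.34 in LPS-treated WT, 5.72 and 10.6 in untreated KO, and 1.45 and 1.71 in LPS-treated KO. The KO libraries with LPS were the lowest 2 of the 8. In KO the mean with LPS was 5.16-fold lower, 1.58 ± 0.189 against 8.15 ± 3.43 RPKM (SD, n = 2), a log2 change of -1.78 with a standard error of 0.42. The limma adjusted p was 0.0525, just above the threshold, and was 0.0398 with the replicate block, 0.0417 with a pseudocount of 0.1, 0.0456 after quantile normalization and 0.104 without the filter. Leaving out WT LPS A or B gave 0.0241 or 0.0235, and the other 6 libraries 0.0653 to 0.253. In WT the log2 change was -0.72 (-1.72 to 0.27, adjusted p = 0.290). Its exons overlap those of Nt5dc2 on the opposite strand.

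Cd163 encodes the haptoglobin-haemoglobin scavenger receptor (chr6:124254669-124280545, plus strand). It was at 0.775 and 1.57 RPKM in untreated WT, 1.75 and 0.563 in LPS-treated WT, 0.395 and 1.04 in untreated KO, and 0.724 and 0.387 in LPS-treated KO. The 2 letters changed in opposite directions in each genotype. Log2 changes with LPS were -0.04 in WT (-0.91 to 0.83) and -0.12 in KO (-0.996 to 0.749), at an estimated 14 to 86 reads per library.

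Counting loci whose 2 LPS libraries both lay outside the range of the 2 untreated ones gives a coarser view. Among the 9 tested markers, 2 were higher in this sense in WT (Il4ra, Tgm2) and 1 lower (Retnla), where 18.2% of all loci were higher and 45.9% lower. In KO 3 were higher (Il4ra, Clec7a, Tgm2) and 3 lower (Mrc1, Clec10a, Stab1), against 15.1% higher and 48.0% lower over all loci. So large a share of all loci was lower with LPS that the shares of the markers that were lower do not exceed it.

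The genotypes were compared next, within each treatment. In untreated macrophages none of the 9 markers was called, and 0.0266% of all loci were. Limma gave every marker an adjusted p of 1, and none had an unadjusted p under 0.05. Il4ra was at the same mean level in both genotypes, 22.2 and 22.3 RPKM, with a log2 difference (KO minus WT) of -0.00 and a 95% interval of -0.45 to 0.45. Wider intervals held for Retnla (0.08, -1.49 to 1.66), Clec10a (0.18, -1.27 to 1.62), Mrc1 (0.56, -0.66 to 1.77) and Chi3l3 (-0.74, -2.18 to 0.71). Clec7a differed by -0.03 (-0.88 to 0.82), Cd163 by -0.34 (-1.21 to 0.53), Stab1 by -0.58 (-1.58 to 0.41) and Tgm2 by -0.50 (-1.35 to 0.36). Chi3l3 and Tgm2 were lower in both KO libraries than in both WT ones, the latter by 39.3 against 39.6 RPKM at the closest pair, and no marker was higher in this sense; over all loci 5.86% were lower and 17.8% higher.

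With LPS, again none of the 9 was called, against 0.00887% of all loci. Stab1 had the lowest unadjusted p, 0.00568: KO macrophages held 1.45 and 1.71 RPKM against 11.02 and 4.34 in WT, a log2 difference of -1.64 (standard error 0.42, 95% interval -2.63 to -0.64, limma adjusted p = 0.924). Il4ra was lower by a smaller amount, 49.3 and 53.8 against 71.6 and 86.1 RPKM, with a log2 difference of -0.60 (-1.05 to -0.15, unadjusted p = 0.0164, limma adjusted p = 1). These 2 were the markers with an unadjusted p under 0.05, as 4.42% of all loci had, and neither passed the correction. Chi3l3 differed by -1.42 (-2.87 to 0.02), Clec10a by -1.30 (-2.74 to 0.15), Mrc1 by -0.65 (-1.87 to 0.56) and Cd163 by -0.42 (-1.30 to 0.45). Retnla had the highest positive value of the 9, 1.23 (-0.35 to 2.80), at 56.7 and 62.7 RPKM against 19.0 and 32.5. Tgm2 and Clec7a differed by 0.01 (-0.85 to 0.87) and -0.02 (-0.87 to 0.83). Both KO libraries were below both WT libraries for 5 of the 9, Stab1, Il4ra, Chi3l3, Clec10a and Mrc1, where 11.7% of all loci were. Retnla alone of the 9 was above, where 18.7% of loci were. B cell markers were also higher in these KO libraries (1444 and 1029 RPKM against 632 and 424) and Lyz2 lower (5111 and 4547 against 17329 and 13231). Of the other large peritoneal macrophage markers, Emr1 (454 and 454 against 450 and 424) and Icam2 were higher. Itgam (498 and 400 against 615 and 703), Csf1r, Gata6 and Selp were lower, and the rest overlapped. The part of cell content in these differences was not tested.

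**Figure D3:**
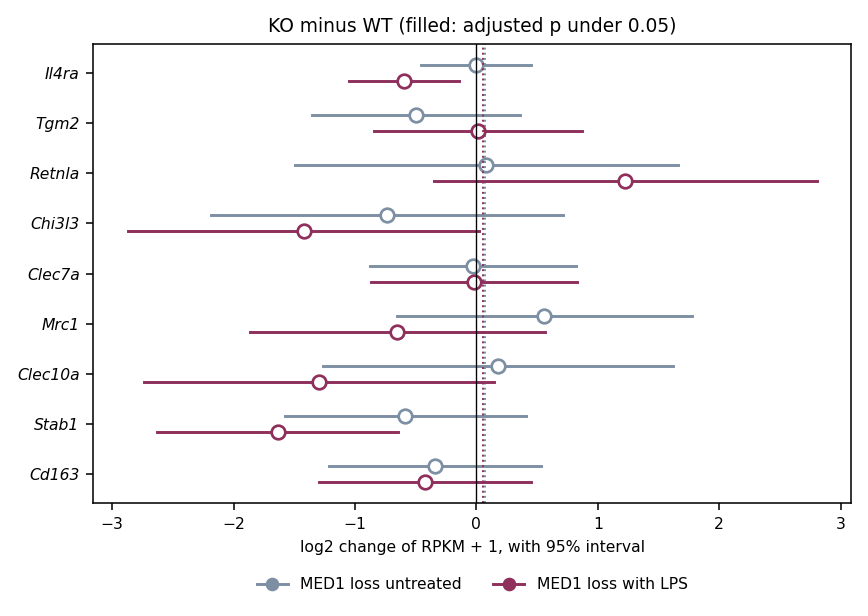
Log2 difference of RPKM + 1, KO minus WT (x axis), for the 9 tested markers without LPS (grey) and with LPS (purple); bars are 95% intervals and dotted lines the medians of all tested loci. No point is filled, so no marker passed the test, and the intervals of Stab1 and Il4ra with LPS (-2.63 to -0.64 and -1.05 to -0.15) do not reach 0.

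Averaged over both treatments, none of the 9 was called, beside 0.0355% of loci. Stab1 differed by -1.11 (-1.81 to -0.41, unadjusted p = 0.0070) and Chi3l3 by -1.08 (-2.10 to -0.06, unadjusted p = 0.0413), with adjusted p of 0.999 in each case. The remaining averages ran from -0.56 for Clec10a to 0.65 for Retnla, with intervals that included 0. The median over the markers was -0.30, beside 0.06 over all loci.

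The interaction, the LPS change in KO minus that in WT, was called for none of the markers and for 0.0355% of loci. It was -0.60 for Il4ra (-1.24 to 0.04, unadjusted p = 0.0636) and 0.51 for Tgm2 (-0.70 to 1.72). For Clec10a it was -1.47 (-3.52 to 0.57), for Mrc1 -1.21 (-2.93 to 0.51), for Stab1 -1.05 (-2.46 to 0.35) and for Retnla 1.15 (-1.08 to 3.37). Chi3l3, Cd163 and Clec7a gave -0.69, -0.08 and 0.01, and limma's adjusted p was 0.9999 throughout, with no unadjusted p under 0.05. The changes with LPS in WT and KO are therefore not shown to differ for any marker, and the intervals leave room for differences of more than 2-fold in each of them. Arg1, the arginase marker left out of this group, was at 325 and 425 RPKM in LPS-treated WT and at 11.5 and 12.4 in LPS-treated KO, a log2 difference of -4.85 (limma adjusted p = 0.00261, and 0.0587 without KO LPS A). Its untreated values were 56.1 and 48.2 in WT and 22.8 and 36.9 in KO.

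The spread between libraries of a group set much of what could be seen. Il4ra varied least, with at most a 1.22-fold difference between the letters. Tgm2 reached 1.94-fold, Clec7a 2.08-fold, Stab1 2.54-fold, Cd163 3.11-fold, Mrc1 3.37-fold, Mgl2 4.02-fold, Clec10a 4.31-fold, Chi3l3 4.49-fold and Retnla 5.37-fold. In untreated KO, library A was the higher for Retnla, Clec10a, Mrc1, Mgl2, Chi3l3 and Tgm2, and library B for Cd163, Stab1, Il4ra and Clec7a. That B library also held the highest B cell, T cell, eosinophil and small-macrophage marker sums and, with 15.4 RPKM, the highest Ccr2, a monocyte receptor gene. The eosinophil sum there was mostly Il5ra (27.4 RPKM), with Prg2 at 0.571 and Epx at 0.0972. The small-macrophage sum was mostly the antigen presentation genes H2-Aa, H2-Ab1 and H2-Eb1 (649, 309 and 272 RPKM). These sums are not shown to come from separate cell types. What part other cells had in the difference was not tested.

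**Figure D4:**
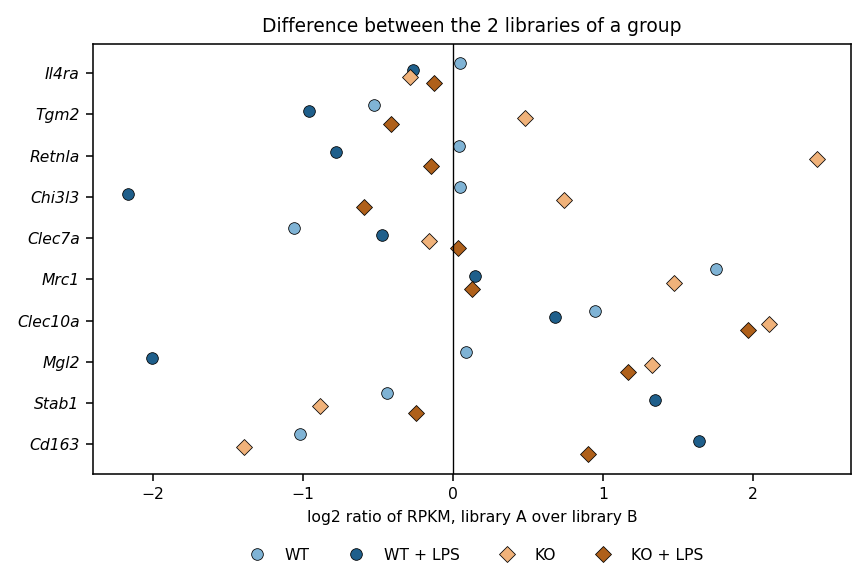
Log2 ratio of RPKM in library A over library B (x axis) for each marker and group; circles are WT, diamonds KO, darker colours LPS. Clec10a lies to the right of 0 in all 4 groups, Il4ra stays close to 0, and Retnla in untreated KO lies farthest to the right, at a 5.37-fold ratio.

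The receptor, its partners and the STAT6 pathway were examined as a list of 21 genes. Besides Il4ra itself, 17 of them were tested and are counted here. With LPS 3 rose and none fell in WT, and 4 rose and none fell in KO, with medians of 0.07 and 0.04. With the replicate block, 4 rose and 2 fell in WT and 5 rose and 2 fell in KO. For this and the lists below, the medians over all loci were -0.25 in WT and -0.28 in KO. The main fit called 3.17% of loci higher and 3.14% lower in WT, and 3.31% each way in KO. With the replicate block, 644 of 11272 loci were called higher and 1174 lower in WT, and 592 and 1019 in KO. The genes of this list that rose included Cish and Socs1, which encode inhibitors of cytokine receptor signalling. Cish went from 1.48 and 1.51 to 34.4 and 64.2 RPKM in WT and from 1.24 and 1.54 to 51.6 and 48.3 in KO (log2 changes 4.27 and 4.41). Socs1 had log2 changes of 4.85 and 3.39, Tfec, a transcription factor gene of the macrophage lineage, 1.81 and 2.40, and Kdm6b, a histone H3K27 demethylase gene, 1.62 in KO. The Kdm6b call was lost without the filter, with median-ratio scaling and in 6 of 8 fits without 1 library. Limma called none of the 17 for MED1 loss or the interaction, and at an unadjusted p under 0.05 there were 0 in untreated cells, 3 with LPS, 2 averaged and 0 for the interaction. Over all loci, 0.834%, 4.42%, 4.19% and 1.63% had such a p in these 4 contrasts.

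Stat6 itself was at 84.0 and 80.5 RPKM in untreated WT, 61.0 and 31.1 in LPS-treated WT, 87.0 and 76.8 in untreated KO, and 48.1 and 37.6 in LPS-treated KO. Every LPS library was below every untreated one, with log2 changes of -0.90 (adjusted p = 0.116) and -0.93 (adjusted p = 0.111), which the replicate block put at adjusted p = 0.0470 and 0.0467. The other receptor chains did not pass: Il2rg, the common gamma chain, had log2 changes of 0.88 (adjusted p = 0.0779) and 0.79 (adjusted p = 0.0978), and Il13ra1 0.71 (adjusted p = 0.220) and -0.38 (adjusted p = 0.479). Pparg, a lipid-sensing nuclear receptor gene, had -1.23 in WT (adjusted p = 0.213, with the replicate block 0.0838) and -1.64 in KO (adjusted p = 0.127, with the replicate block 0.0413). Irf4, a transcription factor gene induced by STAT6, was at 18.0 and 10.2 RPKM in untreated WT, 11.1 and 9.04 in LPS-treated WT, 18.4 and 24.7 in untreated KO, and 30.5 and 20.4 in LPS-treated KO, and did not pass. The ligands were nearly undetected, with Il4 at 0.886 RPKM or less and Il13 at 0.207 or less.

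**Figure D5:**
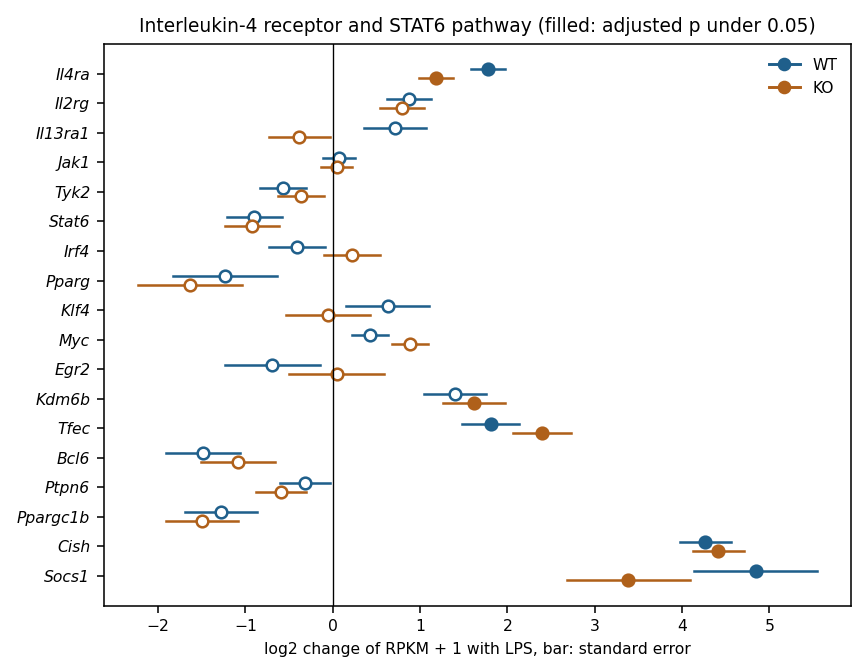
Log2 change of RPKM + 1 with LPS (x axis) for Il4ra and the 17 tested genes of the interleukin-4 and STAT6 pathway in WT (blue) and KO (brown); bars are standard errors and filled points have an adjusted p under 0.05. Cish and Socs1 lie farthest right at 3.39 to 4.85, and both Stat6 points lie near -0.9 and are open.

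A list of 28 further alternative activation genes had 22 tested, with 3 that rose and 3 that fell with LPS in WT and 1 that rose and 2 that fell in KO; the medians were -0.14 and -0.15. With the replicate block the counts were 5 and 5 in WT and 4 and 7 in KO. Those that rose in WT were Arg1 (2.82), Ch25h (3.92), the cholesterol 25-hydroxylase gene, and Socs2 (2.19), and Ch25h also rose in KO (2.62). Matk, a kinase gene, fell in both genotypes (-2.15 and -1.97), from 9.64 and 11.9 to 1.59 and 1.68 RPKM in WT. Igf1, the insulin-like growth factor gene, and Trem2, a lipid receptor gene, fell in WT (-1.87 and -2.75). In KO, Igf1, Trem2 and Socs2 moved the same way without passing (-1.31, -1.84 and 1.61, limma adjusted p = 0.0581, 0.111 and 0.0645). Arg1 fell in KO (-1.21), a call that either rescaling ended. Leaving out some of the libraries ended each of these calls. The Trem2 call was also lost with a pseudocount of 0.1, without the filter and without the trend. The called log2 changes of this list carry limma adjusted p of 0.00683 to 0.0478.

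Among 21 tested C-type lectin and dectin-1 signalling genes, 2 rose and none fell in WT and 3 rose and 1 fell in KO, with medians of 0.06 and 0.20 (with the replicate block 3 and 2, and 4 and 3). Malt1, which with Card9 and Bcl10 carries the dectin-1 signal to NF-κB, rose in both genotypes (2.53 and 2.77, limma adjusted p = 0.0107 and 0.00870), as did the kinase gene Src (1.65 and 2.50). Clec4e, the mincle receptor gene, rose in KO from 202 and 268 to 3018 and 3573 RPKM (3.81, adjusted p = 0.0208), and Clec4a3 fell there (-2.75, adjusted p = 0.0378). In WT both moved the same way without passing (2.46 and -2.11, limma adjusted p = 0.0600 and 0.0685, with the replicate block 0.0165 and 0.0404). Syk, the kinase below dectin-1, had log2 changes of 0.27 in WT (limma adjusted p = 0.436) and 0.68 in KO (adjusted p = 0.0980). Card9 had -0.75 in WT (adjusted p = 0.155, with the replicate block 0.0705) and -1.23 in KO (adjusted p = 0.0581, with the replicate block 0.0193).

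Of 9 tested scavenger and endocytic genes related to Stab1, Cd163 and Mrc1, 1 fell and none rose in each genotype (with the replicate block 4 fell in WT and 3 in KO). Their medians were -0.84 and -0.52, beside -0.25 and -0.28 over all loci. The gene that fell was Scarb2, which encodes a lysosomal membrane receptor (-0.84, adjusted p = 0.0481 in WT and -1.13, adjusted p = 0.0234 in KO). The WT call was lost in 7 of 8 fits without 1 library, and with a pseudocount of 0.1, no filter, median-ratio scaling or eBayes without the trend; the KO call was lost in 4 of the 8. Of 14 genes of the interleukin-10 and glucocorticoid response, limma called none in WT (3 had an unadjusted p under 0.05), and in KO Mertk, a receptor for apoptotic cells, fell (-1.49, adjusted p = 0.0283, not called after either rescaling) and none rose; with the replicate block 1 rose and 2 fell in WT and 2 rose and 2 fell in KO. Over these lists, Arg1 was the sole gene called for MED1 loss or the interaction. Its interaction call (-4.03, adjusted p = 0.0284) was kept in 1 of 8 fits without 1 library and in 2 of 7 other settings, and was lost with a pseudocount of 0.1, with no filter, with a filter at 5 RPKM and after either rescaling.

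The loci whose pattern over the 8 libraries was most like that of the called markers Il4ra and Tgm2, and of the uncalled Stab1 and Clec10a, were ranked by Pearson's r of log2(RPKM + 1) among 7685 loci, as a description across libraries that share treatments and letters. For Il4ra they were Cd274, the PD-L1 gene (r = 0.991), Soat2 (0.988) and Gja1 (0.987). Cd274 was at 32.2 and 42.7 RPKM in untreated WT, 197 and 337 in LPS-treated WT, 33.4 and 39.9 in untreated KO, and 134 and 166 in LPS-treated KO. As for Il4ra, both WT libraries with LPS were above both KO libraries with LPS, and these above all untreated ones. For Tgm2 they were Ext1 (0.996), Ankrd33b (0.992) and Il1a (0.992). For Stab1 they were Mettl9 (0.976), Apoc2 (0.974) and Brwd1 (0.970), of which Apoc2 was at 6.93 and 11.6 RPKM in LPS-treated KO and 20.8 to 59.0 in the other libraries. For Clec10a they were Fubp3, Sec11a and Hk1, at 0.961, 0.961 and 0.961.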

How the data were processed

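RNA was sequenced from 8 mouse peritoneal macrophage libraries in 4 groups of 2. Per the submitters' processing notes, the authors used bcl2fastq, TopHat2 2.0.14 and Cufflinks 2.2.1 with the mm9 genome; no source used here names the annotation, the read pairing or the strandedness. The deposited values are RPKM per locus, normalized by the authors for length and depth. Of 24192 lines, 457 repeated a locus with the same values, which left 23735 loci. Groups follow the labels.

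Loci at 1 RPKM or more in at least 2 libraries (11272) were fitted as log2(RPKM + 1), pseudocount 1, with limma 3.58.1 (lmFit, and eBayes with trend) in R 4.3.3 on all 8 libraries, 1 mean per group. The 6 contrasts were the LPS change within each genotype, the KO minus WT difference within each treatment and averaged over both, and the interaction. Tests are two-sided, with Benjamini-Hochberg adjustment over all loci and calls under 0.05. The fit was tested on simulated data. Alternatives were a pseudocount of 0.1, no filter, a filter at 5 RPKM, median-ratio scaling, quantile normalization, the letter as a replicate block, eBayes without the trend, and leaving out each library. The main fit does not use the letters. In the replicate block alone they were taken to pair libraries, from the data and not the labels. The reason was that A minus B differences correlated across loci in all 6 pairs of groups (r = 0.20 to 0.41).

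All markers are named; from each list, called genes up to 4 by size are named, with partners fixed by name, and the 3 loci most alike for 4 markers. Markers and lists were chosen with earlier results of these data known. Gene positions and shared transcript windows come from GENCODE vM1 on NCBIM37 (mm9), and promoters from RefSeq on GRCm38.p6; 1 planned motif search is not reported here. Python 3.11.15, pandas 2.3.3, numpy 2.4.6 and matplotlib 3.10.9 were used. Depth was estimated from RPKM steps and is not a recorded total. Of 2066 loci with low values, 67.7% fitted whole multiples of 1 step, and the others were not used. Read estimates per marker take the longest transcript of each gene, so they are approximate for genes with several transcripts.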

Additional observations from a re-analysis of the deposited data

How the results depend on the processing

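No setting turned the direction of the called LPS changes of Il4ra and Tgm2. The number of markers called with LPS in WT was 2, and 1 without the filter; in KO it was 2, and 4 with the replicate block, which added Clec10a and Stab1. The replicate block changed no other call of a marker. Leaving out 1 library gave 0 to 3 called in WT and 0 to 3 in KO; the lone library left in a group is then assumed to vary like the other groups, and with fewer residual degrees of freedom a lost call is no sign of a smaller change. No marker was called for MED1 loss or the interaction under any setting. The cause of the changes below was not tested. Rescaling reversed small uncalled values. With median-ratio scaling and quantile normalization, LPS in WT gave Mrc1 0.134 and 0.219 and Cd163 0.0732 and 0.158, MED1 loss untreated gave Retnla -0.00594 and -0.00686, and MED1 loss with LPS gave Tgm2 -0.0646 and -0.00463. Median-ratio scaling gave Retnla 0.145 for LPS in KO, and quantile normalization gave Cd163 0.0244 there and Clec7a -0.134 for the interaction.

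Ranges over the 8 fits without 1 library, on the log2 scale, follow for the markers that changed sign or call in any of them. LPS in WT: Il4ra 1.64 to 1.91, Tgm2 1.55 to 2.51, Retnla -1.65 to -0.905, Mrc1 -0.752 to 0.605, Chi3l3 -0.969 to 1.13, Clec7a -0.215 to 0.839 and Cd163 -0.451 to 0.365. LPS in KO: Il4ra 1.04 to 1.31, Tgm2 2.31 to 2.77, Stab1 -2.17 to -1.38, Retnla -1.32 to 1.06 and Cd163 -0.396 to 0.149. MED1 loss untreated: Mrc1 -0.121 to 1.24, Retnla -1.11 to 1.27, Il4ra -0.138 to 0.134, Clec10a -0.734 to 1.09 and Clec7a -0.556 to 0.498. MED1 loss with LPS: Clec7a -0.255 to 0.218 and Tgm2 -0.466 to 0.488. MED1 loss averaged: Mrc1 -0.386 to 0.292 and Clec7a -0.287 to 0.24. Interaction: Retnla -0.047 to 2.34, Chi3l3 -1.74 to 0.362, Clec7a -0.516 to 0.538 and Cd163 -0.489 to 0.327. Of 30 calls of list genes named above, 2 (Cish in both genotypes) held in every such fit, 28 were lost in at least 1, 14 under at least 1 other setting, and none reversed. Over all loci, the replicate block called 644 higher and 1174 lower with LPS in WT, beside 357 and 354 without it, and 592 and 1019 beside 373 and 373 in KO. Estimated reads were lowest for Mgl2 (2 to 21), Clec10a (5 to 294) and Cd163 (14 to 86).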
